A study of Mus musculus with 80 samples.

Results

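Adenine base editors are aimed at adenines inside a protospacer, and the account here follows what lies beside that target: adenines in the 10 bases before and after the protospacer, and thymines anywhere in the window, whose partner adenine sits on the opposite strand. Members were allele rows of the deposited tables with guanine read at a flank adenine or cytosine read at a window thymine, both on the sgRNA strand. They made up 1362 of 11389 allele rows, and 1931 of 343154 reads. Of these rows, 633 had an A-to-G change at a flank adenine, 741 had a T-to-C change, and 12 had both. Single reads made up 1103 of the member rows (81.0%), as they did 8259 of all allele rows (72.5%). Control samples held 190 of the rows and edited samples 1172.

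The samples were Hepa1-6 cells, a mouse hepatoma line, which had been transfected with plasmids for 1 of 7 sgRNAs at splice sites of Ptbp1 and for 1 editor. The editors were SpCas-ABEmax, SpCas-ABE8e, SpG-ABEmax and SpG-ABE8e at the donors of exon 1 (sgRNA1), exon 7 (sgRNA6) and exon 8 (sgRNA7), and the SpG editors alone at the acceptor of exon 3 (sgRNA2), the donor of exon 3 (sgRNA3), the acceptor of exon 7 (sgRNA5) and the donor of exon 9 (sgRNA9). Controls received the sgRNA without an editor, and all cells shared the line, the transfection with 400 ng of DNA and 0.5 µl of Lipofectamine, and collection after the same interval. There were 60 edited samples in 20 groups of 3 and 20 controls in 7 groups, of 3 samples each except 2 at the exon 7 donor. Each sample was a pool of transiently transfected cells and not a clone, so each value is an average over cells with and without the plasmids.

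An adenine base editor joins a Cas9 nickase to an evolved TadA deaminase that turns adenine into inosine, which polymerases read as guanine. Cas9 opens the DNA over the protospacer, which pairs the opposite strand with the sgRNA and leaves the strand that carries the protospacer sequence single-stranded, and the deaminase works best on adenines in the PAM-distal portion of that loop. The opposite strand and the double-stranded flanks are not its favoured substrates. SpG is a SpCas9 variant with a relaxed PAM requirement, and ABE8e carries a faster deaminase than ABEmax.

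The windows below are shown 5′ to 3′ on the sgRNA strand because they hold the sites described here, apart from position 24 of the exon 1 donor. Capitals mark the flank adenines and all thymines. Positions are counted from 1 to 20 in the protospacer, from -1 to -10 going away from its 5′ end, and from 21 to 30 behind it, where the PAM starts at 21. At the exon 1 donor the 5′ flank and the protospacer alone are printed.
Exon 1 donor (sgRNA1), chr10:79690542-79690571, minus strand: gcgcggcAggacTTacccgTccaTggcaca
Exon 3 acceptor (sgRNA2), chr10:79694569-79694608, plus strand: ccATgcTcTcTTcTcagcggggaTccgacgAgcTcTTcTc
Exon 3 donor (sgRNA3), chr10:79694634-79694673, minus strand: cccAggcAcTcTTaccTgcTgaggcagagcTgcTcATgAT
Exon 7 acceptor (sgRNA5), chr10:79695598-79695637, plus strand: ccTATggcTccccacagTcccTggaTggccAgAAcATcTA
Exon 7 donor (sgRNA6), chr10:79695765-79695804, minus strand: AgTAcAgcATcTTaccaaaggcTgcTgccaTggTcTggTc
Exon 8 donor (sgRNA7), chr10:79696004-79696043, minus strand: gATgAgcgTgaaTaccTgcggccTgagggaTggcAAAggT
Exon 9 donor (sgRNA9), chr10:79696780-79696819, minus strand: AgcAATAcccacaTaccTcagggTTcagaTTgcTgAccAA

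Coordinates are from a match of these windows to GRCm39. The windows hold 33 flank adenines, of which 15 are in the 5′ flank and 18 in the 3′ flank, and 57 thymines, of which 27 are in the protospacer, 12 in the 5′ flank and 18 in the 3′ flank. All 70 bases of the 5′ flanks are intronic. All 70 bases of the 3′ flanks are exonic, 60 of them coding and 10 in the untranslated part of exon 1. The side of the protospacer and intron or exon therefore cannot be told apart.

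Changes at flank adenines were rare. The percentage of reads with at least 1 A-to-G change at a flank adenine ranged from 0.0211% to 0.749% over the means of the 20 edited groups, with a median of 0.212%, and from 0.0293% to 0.378% over the means of the 7 controls. At the splice-site adenine the means of the edited groups ranged from 0.295% to 92.9% of reads. The flank percentage was higher than in the controls by 0.108 percentage points, averaged over sgRNAs, with a higher mean at 6 of 7 sgRNAs (stratified permutation test, two-sided, p = 0.00287, adjusted p = 0.00478 over 10 tests). The comparison of ABE8e with ABEmax gave a difference of 0.121 percentage points, positive in 9 of 10 pairs of groups (permutation p = 1e-05, the smallest that 100000 resamples can give, adjusted p = 0.0001). Among alleles of at least 0.2% of reads, which removed most members, neither passed, with 0.0115 percentage points above controls (permutation p = 0.592) and 0.0328 between the deaminases (permutation p = 0.2004). SpCas was above SpG by 0.0673 percentage points, in 6 of 6 pairs of groups (permutation p = 0.00834, adjusted p = 0.0104). Without the third replicates that difference was 0.0540 percentage points (permutation p = 0.113), and with the flank limited to 5 bases on each side it was 0.00749 percentage points (permutation p = 0.573).

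Other changes of the same adenines were counted for comparison, since adenine deamination does not produce them. A-to-C or A-to-T at a flank adenine was also higher in edited samples than in controls, by 0.307 percentage points (permutation p = 9e-05, adjusted p = 0.00045), which is more than the difference for A-to-G. The exon 9 donor had the largest differences, 1.38 and 1.43 percentage points with its 2 editors. The median over the 20 edited groups was 0.0927, with 19 above their controls, against 0.0666 for A-to-G, with 14 above. The controls thus differed from the edited samples in changes that are not members, and the part of this in the results against controls was not tested. Between ABE8e and ABEmax, A-to-C or A-to-T at flank adenines differed by -0.0362 percentage points (permutation p = 0.268, adjusted p = 0.358 over 20 comparisons that were chosen after the data were seen). Those 20 also held each deaminase against the controls. A-to-G at flank adenines was 0.174 percentage points above the controls with ABE8e (permutation p = 6e-05, adjusted p = 0.0006) and 0.0418 with ABEmax (permutation p = 0.158, adjusted p = 0.243).

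The difference between the deaminases was larger before the protospacer than behind it. In the 5′ flank, ABE8e was above ABEmax by 0.108 percentage points of reads with A-to-G, in 8 of 10 pairs of groups (permutation p = 2e-05, adjusted p = 0.0004 over the same 20). In the 3′ flank the difference was 0.0106 percentage points, positive in 4 of 10 pairs (permutation p = 0.399, adjusted p = 0.443), of which the 2 pairs at the exon 7 donor were fixed at 0 because its 3′ flank has no adenine. The difference between the flanks was 0.0971 percentage points (permutation of the deaminase labels, p = 0.00081, adjusted p = 0.0027). Without the exon 7 donor it was 0.0784 percentage points, positive in 6 of 8 pairs (permutation p = 0.0190, adjusted p = 0.0285 over 6 such comparisons). The largest 5′ differences were with SpG at the donors of exon 3 (0.636% with ABE8e, 0.290% with ABEmax) and exon 9 (0.546%, 0.331%). These flanks hold the adenines at -3 and -4 described below, which are therefore not separate evidence.

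By site, the largest flank percentages were at the donors of exons 9 and 3. At the exon 9 donor the 3 SpG-ABE8e samples had 0.637%, 0.825% and 0.784% of reads with A-to-G at any of its 7 flank adenines, the SpG-ABEmax samples had 0.448%, 0.409% and 0.575%, and the controls had 0.234%, 0.0934% and 0.546%. All SpG-ABE8e samples lay above all controls there, while the SpG-ABEmax samples overlapped with the third control. At the exon 3 donor, with 4 flank adenines, the values were 0.420%, 0.635% and 0.939% with SpG-ABE8e, 0.250%, 0.460% and 0.335% with SpG-ABEmax, and 0.377%, 0.251% and 0.505% in controls, so both editors overlapped with the controls. At the exon 8 donor SpCas-ABE8e gave 0.379% ± 0.0441 (SD, n = 3), SpCas-ABEmax 0.318% ± 0.0328, SpG-ABE8e 0.345% ± 0.0605 and SpG-ABEmax 0.204% ± 0.123, against 0.112% ± 0.0161 in controls. At the exon 7 donor the means were 0.387% ± 0.165, 0.219% ± 0.0221, 0.335% ± 0.0358 and 0.157% ± 0.0260 in the same order of editors, against 0.159% ± 0.0175 in its 2 controls. The exon 1 donor was the exception, with 0.146% ± 0.0706 in controls and lower means, between 0.0211% and 0.108%, with every editor. At the acceptors of exon 3 and exon 7 all group means were at most 0.102%.

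Single sites were tested with edgeR's quasi-likelihood test on read counts, 1 fit per sgRNA over every base change with at least 10 reads, with Benjamini-Hochberg adjustment over all changes of all 20 comparisons of an edited group with its controls. Of the members, 19 of 33 flank adenines and 36 of 57 thymines had enough reads to enter. Flank adenines gave 3 calls at an adjusted p below 0.05 among 58 comparisons (5.17%), all higher in edited samples, and 9 at an unadjusted p below 0.05. Thymines gave 1 call among 106 (0.943%), also higher, and 12 at an unadjusted p below 0.05, of which 10 were higher and 2 lower. Of all 1082 comparisons over all kinds of base change, 124 were called higher (11.5%) and 57 lower (5.27%). Among the 834 comparisons of changes other than A-to-G and T-to-C, 63 were called higher (7.55%) and 57 lower (6.83%). The members' shares of edgeR calls did not exceed this background. Absence of overlap, with every edited sample above every control, was also counted. It is easier to reach at the exon 7 donor, which had 2 controls and not 3. It was found in 19 of 94 combinations of flank adenine and edited group (20.2%) and in 25 of 156 for thymines (16.0%). The same held for 13.1% of all 2400 combinations of possible base change and edited group, and for 10.1% of those other than A-to-G and T-to-C. Combinations without any read are included in these shares and cannot show it. Of the 2058 combinations other than A-to-G and T-to-C, 1054 had a higher and 625 a lower mean than controls. For flank adenines this was 54 and 34 of 94, and for thymines 101 and 51 of 156, so the shares are not on a like basis.

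Comparisons of editors with each other take no difference from the controls, but the controls were in the same fits and entered the estimate of the spread. These comparisons had a lower background. With ABE8e against ABEmax, 31 of 541 base changes were called higher with ABE8e (5.73%), and 7 of the 417 that were neither A-to-G nor T-to-C (1.68%). Among members, 1 of 29 flank adenines and 2 of 53 thymines were called, all higher with ABE8e. With SpCas against SpG, 17 of 410 changes were called higher with SpCas (4.15%), and 2 of the 328 other than A-to-G and T-to-C (0.61%). Among members this was 0 of 20 flank adenines, of which 0 had an unadjusted p below 0.05, and 1 of 34 thymines. In the test of whether the difference between deaminases depended on the Cas9 variant, edgeR called 0 of 10 flank adenines and 0 of 17 thymines, and 0 of each had an unadjusted p below 0.05. These site comparisons between editors were chosen after the data were seen.

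The clearest flank adenine was at -3 of the exon 3 donor, at chr10 position 79694666, which lies 8 bases into the intron behind exon 3 and is preceded by C. The SpG-ABE8e samples had guanine there in 0.270%, 0.336% and 0.669% of reads, from 18, 27 and 42 reads. The SpG-ABEmax samples had 0.0770%, 0.0159% and 0.0583%. The 3 controls had 0 reads of 4508, 399 and 4753, which allows shares of up to 0.0665%, 0.752% and 0.0631%. Every sample of both editors was thus above the controls as measured, with the second control too shallow to set a useful bound. Over pooled reads SpG-ABE8e was at least 13.4-fold above the 3 reads that a count of 0 in the group allows (edgeR adjusted p = 1.27e-07). SpG-ABE8e also exceeded SpG-ABEmax, with means of 0.425% and 0.0504% and a log2 fold change of 3.04 (edgeR adjusted p = 2.26e-06). SpG-ABEmax against controls did not pass the threshold (edgeR adjusted p = 0.0693).

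The adenine at -7 of the same window was read as guanine in 0.333%, 0% and 0.442% of control reads, 0.150%, 0.262% and 0.255% of SpG-ABE8e reads and 0.154%, 0.333% and 0.233% of SpG-ABEmax reads. This was the highest mean of any flank adenine in controls, 0.258%, and the edited samples lay within its range. The nearest adenine on the other side of the protospacer, at 26, was between 0% and 0.0318% in all samples.

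The flank adenine with the highest level was at -4 of the exon 9 donor, at chr10 position 79696813, 10 bases into the intron and preceded by T. SpG-ABE8e samples had 0.393%, 0.577% and 0.511% of reads with guanine, SpG-ABEmax samples 0.143%, 0.266% and 0.235%, and controls 0.0720%, 0% and 0.141%. Every sample of both editors was above every control. The log2 fold change of SpG-ABE8e over controls was 2.70 (edgeR adjusted p = 0.0437), and that of SpG-ABEmax 1.51 (edgeR adjusted p = 0.321). The call for SpG-ABE8e was lost without the first or the second replicates (edgeR adjusted p = 0.220 and 0.211). T-to-A or T-to-G changes at thymines of this window were in 8.17% and 8.54% of reads of the first 2 controls, 1.04% of the third and 1.02% of SpG-ABE8e reads on average, and A-to-C or A-to-T changes at flank adenines were in 0.108%, 0.187% and 1.59% of control reads and 2.01% of SpG-ABE8e reads. The third control was thus nearer to the edited samples in both, and the part of this in the call was not tested. This control also had the highest value of the 3 at -4, so leaving it out could only raise the difference there. That removal was not planned. The log2 fold change at -4 was then 3.54 (edgeR adjusted p = 1.35e-08), from which no support is drawn. The adenine at 26 of this window had 0.187%, 0.165% and 0.182% with SpG-ABE8e, but the third control had 0.211% and the groups overlapped (edgeR adjusted p = 0.388).

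At the exon 8 donor, the adenine at -9 (chr10 position 79696042, preceded by G) was called for SpCas-ABE8e, with 0.0752%, 0.112% and 0.138% against 0%, 0.0432% and 0% in controls (edgeR adjusted p = 0.0422). SpCas-ABEmax samples had similar values of 0.125%, 0.0708% and 0.0859% without passing the threshold (edgeR adjusted p = 0.0838). The nearest adenine before the protospacer, at -6, had 0.0752%, 0.0160% and 0.0826% with SpCas-ABE8e and 0% in all 3 controls (edgeR adjusted p = 0.0733), and the nearest behind it, at 25, overlapped with controls for all 4 editors. The adenine at 27, in a codon of exon 8 where guanine gives the change F316L, was between 0.0551% and 0.165% in the 12 edited samples and between 0% and 0.0708% in controls, and the lowest edgeR adjusted p among the 4 editors was 0.160.

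At the exon 7 donor, whose 3′ flank has no adenine, the nearest flank adenine was at -2. It was read as guanine in 0.104%, 0.155% and 0.168% of SpCas-ABE8e reads, 0.131%, 0.146% and 0.103% of SpG-ABE8e reads and 0.0488% and 0.0245% of control reads, without overlap and without a call (edgeR adjusted p = 0.219 and 0.291). The adenine at -7 of this window had 0.0988%, 0.274% and 0.101% with SpCas-ABE8e against 0.0488% and 0.0734% (edgeR adjusted p = 0.390).

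The other nearest flank adenines stayed at low counts. At -3 of the exon 1 donor 1 read with guanine was found in the 15 samples, while the group means at the target adenine, 7 bases further on, reached 44.5%. At 24 of the same window single samples had up to 0.150%, the highest of which was a control. At the exon 3 acceptor the adenine at -8 had 0%, 0.0449% and 0.216% with SpG-ABE8e, a spread that rests on the third sample, and the adenine at 21 had at most 0.0449% in any sample. At the exon 7 acceptor no sample exceeded 0.0386% at -7 or 0.0430% at 21.

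By distance, the 5 adenines from -5 to -1 had 7 of 16 combinations with all edited samples above all controls. The 10 adenines from -10 to -6 had 6 of 28. EdgeR called 2 of 12 and 1 of 22 comparisons in these ranges, with 3 and 4 at an unadjusted p below 0.05. The 7 adenines from 21 to 25 had 2 of 20 and the 11 from 26 to 30 had 4 of 30. There edgeR called 0 of 12 and 0 of 12, with 0 and 2 at an unadjusted p below 0.05. Of all 1082 comparisons, 11.5% were called higher, and of the 834 other than A-to-G and T-to-C, 7.55%. All edited samples were below all controls in 2, 1, 0 and 2 combinations of these ranges, in the order given. Over all 2400 combinations of possible base change and edited group, read or not, 13.1% had all edited samples above all controls. Of the 2058 other than A-to-G and T-to-C, 10.1% had this, and 104 had the reverse. The median difference from controls in ABE8e groups was 0.0553 percentage points from -5 to -1, 0.0353 from -10 to -6, 0.00457 from 21 to 25 and 0.00775 from 26 to 30. In ABEmax groups it was 0.000588, 0.00899, -0.000976 and -0.00173 in the same order, with no rise towards the protospacer in the 5′ flank. With all editors together it was 0.0186, 0.0102, 0 and 0.00774. Over all flank adenines and editors it was 0.00848 percentage points, and over the changes other than A-to-G and T-to-C, again with all editors, it was 0.000949. Adenines after T are favoured by TadA deaminases, but 4 of the 33 flank adenines alone had a T before them, too few to describe the effect of the neighbouring base.

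T-to-C changes, the form in which deamination of an adenine on the opposite strand would be read, were also rare. The percentage of reads with at least 1 of them ranged from 0.0411% to 0.529% over the means of the edited groups and from 0.0769% to 0.269% over those of controls. Edited samples were higher by 0.101 percentage points, with a higher mean at 7 of 7 sgRNAs (permutation p = 0.00091, adjusted p = 0.00216). Without the third replicates the difference was 0.0780 percentage points (permutation p = 0.0541), and among alleles of 2 or more reads it was 0.0324 (permutation p = 0.107). T-to-A or T-to-G at the same thymines differed from controls by -0.798 percentage points (permutation p = 0.0058, adjusted p = 0.00829), with a higher mean at 2 of 7 sgRNAs. That average rests on the exon 9 donor, at -4.90 and -4.81 percentage points with its 2 editors, and the exon 7 donor, at -1.30 to -1.16. The exon 8 donor was higher by 0.194 to 0.454, and the median over the 20 edited groups was -0.0266, with 8 of 20 above their controls. ABE8e was above ABEmax by 0.0830 percentage points, in 8 of 10 pairs of groups (permutation p = 0.00108, adjusted p = 0.00216). Without the second replicates this was 0.0692 (permutation p = 0.0506). For T-to-A or T-to-G the difference between the deaminases was -0.0471 percentage points (permutation p = 0.318, adjusted p = 0.374 over the 20 added comparisons). SpCas and SpG differed by 0.0414 percentage points (permutation p = 0.188).

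For thymines, too, the difference between the deaminases was larger in the 5′ flank than in the 3′ flank. In the 5′ flank ABE8e was above ABEmax by 0.0687 percentage points (permutation p = 0.00014, adjusted p = 0.000933 over the 20 added comparisons), in 7 of 10 pairs of groups. In the protospacer, where the Cas9 loop forms and the opposite strand is paired with the sgRNA, the difference was 0.0158 percentage points (permutation p = 0.382), and in the 3′ flank it was -0.00108 (permutation p = 0.929). The difference between the 5′ and the 3′ flank was 0.0697 percentage points (permutation p = 0.00522, adjusted p = 0.0130). The exon 1 donor has no flank thymine, so its 2 pairs were fixed at 0 in both flanks. Without them the 5′ difference was 0.0858 percentage points in 7 of 8 pairs (permutation p = 0.0002, adjusted p = 0.0006 over the 6 comparisons). The 3′ difference was then -0.00136 (permutation p = 0.930) and the difference between the flanks 0.0872 (permutation p = 0.00495, adjusted p = 0.0099). The largest 5′ differences were with SpCas at the exon 8 donor (0.321% with ABE8e, 0.0261% with ABEmax) and with SpG at the donors of exon 7 (0.186%, 0.0265%) and exon 9 (0.189%, 0.0602%). These flanks hold the thymines described next, which are therefore not separate evidence.

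The thymine called against controls was at -8 of the exon 8 donor, at chr10 position 79696041, 13 bases into the intron. SpCas-ABE8e samples had cytosine there in 0.286%, 0.176% and 0.275% of reads (19, 11 and 20 reads, Wilson 95% intervals from 0.183% to 0.446%, 0.0984% to 0.315% and 0.178% to 0.425%). SpCas-ABEmax samples had 0.0178%, 0% and 0%, SpG-ABE8e samples 0%, 0% and 0.0762%, and SpG-ABEmax samples 0.0280%, 0% and 0%. All 3 controls had 0 reads, of 3036, 2313 and 2826, which allows up to 0.0988%, 0.130% and 0.106%. The 3 SpCas-ABE8e samples lay above every other sample of this sgRNA. Over pooled reads the group was at least 6.76-fold above the limit that the controls allow (edgeR adjusted p = 4.84e-06). It exceeded SpCas-ABEmax with a log2 fold change of 4.97 (edgeR adjusted p = 1.06e-09) and SpG-ABE8e with a log2 fold change of 3.09 (edgeR adjusted p = 0.00267). The partner adenine on the opposite strand is preceded by C, not by T.

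At the exon 7 donor the thymine is also at -8 (chr10 position 79695802, 13 bases into the intron), and its partner adenine is preceded by T. SpG-ABE8e samples had 0.164%, 0.256% and 0.137% and SpG-ABEmax samples 0%, 0.0795% and 0%, without overlap (log2 fold change 2.83, edgeR adjusted p = 0.0484). SpCas-ABE8e samples had 0.0878%, 0.0834% and 0.145% and SpCas-ABEmax samples 0.0325%, 0.0278% and 0.0996%, with overlap. The 2 controls had 0% and 0.0245%, and SpG-ABE8e against them just missed the threshold (edgeR adjusted p = 0.0509). At the exon 9 donor the thymine at -5 (chr10 position 79696814), with A on each side of it, had 0.206%, 0.198% and 0.164% with SpG-ABE8e, 0.0407%, 0.0613% and 0.0784% with SpG-ABEmax and 0.0180%, 0% and 0.0881% in controls (edgeR adjusted p = 0.0611 for SpG-ABE8e). These values and those of the exon 7 thymine were chosen after they were seen. The thymine at -5 and the adenine at -4 next to it were changed in 40 and 113 reads of edited samples, and together in 0 reads. Unrelated changes this rare would also seldom meet in a read, so the count of 0 does not show that they exclude each other.

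In the 5′ flank, edgeR called 1 of 10 comparisons for the 5 thymines from -10 to -6. For the 7 from -5 to -1 it called 0 of 14. Of all 1082 comparisons, 11.5% were called higher. All edited samples were above all controls in 4 of 14 and 2 of 18 combinations of these ranges, in this order. In the protospacer, this was 8 of 48 for the 17 thymines from 1 to 10 and 3 of 28 for the 10 from 11 to 20, and edgeR called 0 of 28 and 0 of 20, with 4 and 1 at an unadjusted p below 0.05. The thymine at 3 of the exon 8 donor, next to the target adenine, was at 0% in the 3 controls and had means of 0.0442% ± 0.0297 with SpCas-ABE8e, 0.0546% ± 0.0178 with SpCas-ABEmax and 0.0530% ± 0.0224 with SpG-ABE8e (SD, n = 3, edgeR adjusted p = 0.132, 0.0834 and 0.140). Behind the protospacer the counts were 7 of 22 from 21 to 25 and 1 of 26 from 26 to 30, with 0 called of 20 and 14 tested, and 2 and 0 at an unadjusted p below 0.05. The share was 13.1% over all 2400 combinations of possible base change and edited group, read or not, and 10.1% over those other than A-to-G and T-to-C. All edited samples were below all controls in 0, 3, 0, 1, 0 and 4 combinations of these ranges, in the order given. Where the partner adenine follows a T, the ABE8e groups had all edited samples above all controls in 6 of 13 combinations. Their median difference from controls was 0.0429 percentage points, and the other thymines had 9 of 65 and 0.0105. With ABEmax the values were 4 of 13 and 0.0187, against 6 of 65 and 0.00232. With ABE8e, edgeR called 0 of 10 comparisons after a T and 1 of 43 at the other thymines. The thymines of the exon 7 and exon 9 donors that were chosen after they were seen follow this pattern and are among those after a T. The difference between the 2 sets is a description over 9 and 48 sites that share libraries, and was not tested.

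Reads were then split by their target base. Among edited samples with at least 50 reads with guanine and 50 with adenine at the splice-site adenine, which left 55 of 60, A-to-G at flank adenines was found in 0.315% of target-edited and 0.204% of unedited reads on average. The difference of 0.111 percentage points was positive in 36 samples, negative in 11 and 0 in 8 (sign-flip permutation test, two-sided, p = 0.00028, adjusted p = 0.000933). For A-to-C or A-to-T at the same adenines the difference was 0.0495 percentage points, positive in 24 and negative in 25 (permutation p = 0.214, adjusted p = 0.306 over the 20 added comparisons). T-to-C was found in 0.290% of target-edited and 0.259% of unedited reads, a difference of 0.0307 percentage points (permutation p = 0.251, positive in 31, negative in 21). It was 0.00113 without the third replicates (permutation p = 0.970), 0.0647 without the second (permutation p = 0.0535) and 0.0405 among alleles of 2 or more reads (permutation p = 0.0476). With at least 200 reads in each class, 52 samples remained and the differences were 0.118 percentage points for flank adenines (permutation p = 0.00036) and 0.0395 for thymines (permutation p = 0.156). With the limit of 50 reads and flank thymines alone, the difference for T-to-C was 0.0425 percentage points (permutation p = 0.0330), and with protospacer thymines alone it was -0.00974 (permutation p = 0.663).

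The share of changed reads that also had the target edit varied with site and editor. At -3 of the exon 3 donor 86 of 87 SpG-ABE8e reads did, where 92.9% ± 1.02 (SD, n = 3) of all reads had the edit. At -4 of the exon 9 donor 75 of 84 did (89.3%), where 73.0% ± 1.60 of all reads had it, and the change was more frequent in target-edited reads in 3 of 3 SpG-ABE8e samples, at 0.478%, 0.741% and 0.598% against 0.148%, 0.174% and 0.274%. With SpG-ABEmax this held in 1 of 3 samples. At -2 of the exon 7 donor, all 47 SpCas-ABE8e and all 11 SpG-ABE8e reads had the target edit, where the means over all reads were 85.1% ± 7.23 and 76.9% ± 1.03. For the thymine at -8 of the exon 8 donor, all 48 SpCas-ABE8e reads with adenine or guanine at the target had guanine, where 88.7% ± 0.902 of all reads did. For the thymine at -8 of the exon 7 donor it was 33 of 36 with SpCas-ABE8e and 13 of 15 with SpG-ABE8e, but 3 of 12 with SpCas-ABEmax, where 35.1% of all reads had the edit, and 0 of 3 with SpG-ABEmax. At -2 of the same window it was 8 of 17 with SpCas-ABEmax. At the exon 9 donor the thymine at -5 had 28 of 32 with SpG-ABE8e and 3 of 8 with SpG-ABEmax (57.8% of all reads edited), and the adenine at 26 had 18 of 30 with SpG-ABE8e, a smaller share than the 73.0% of all reads. At 21 of the exon 7 acceptor it was 1 of 7 with SpG-ABE8e (14.6% of all reads edited).

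The following 5 alleles are examples that carry one of these changes and the target edit within the same read. They were found in all 3 samples of their group, and capitals mark the bases that differ from the reference. Control reads held 0 of them, but each carries the target edit. That edit was in 0.0862% to 0.284% of control reads on average at these donors, so their absence from controls does not bear on the flank or thymine change.
A-to-G at -3 with the target edit, exon 3 donor, SpG-ABE8e: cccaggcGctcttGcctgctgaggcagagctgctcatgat
A-to-G at -4 with the target edit, exon 9 donor, SpG-ABE8e: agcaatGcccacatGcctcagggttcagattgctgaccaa
A-to-G at -2 with the target edit and its bystander, exon 7 donor, SpCas-ABE8e: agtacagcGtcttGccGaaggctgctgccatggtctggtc
T-to-C at -8 with the target edit, exon 8 donor, SpCas-ABE8e: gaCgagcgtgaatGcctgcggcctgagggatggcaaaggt
T-to-C at -8 with the target edit and its bystander, exon 7 donor, SpCas-ABE8e: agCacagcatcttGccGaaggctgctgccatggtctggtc
They had 76, 34, 36, 38 and 30 reads, and means of 0.371% ± 0.178, 0.203% ± 0.0362, 0.108% ± 0.0246, 0.188% ± 0.0256 and 0.0908% ± 0.0293 of reads (SD, n = 3) in this order. The change at -7 of the exon 3 donor was found without any other change in 26 control reads. Together with the target edit it was in 28 SpG-ABE8e reads and also in 0 control reads.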

How the data were processed

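Genomic DNA of 80 samples was amplified at the Ptbp1 splice sites by PCR in 2 steps and sequenced in pairs of reads on a MiSeq. The authors aligned the reads to the amplicons with CRISPResso2, whose version and settings are not given in the sources used here. For each allele of a 40-base window the authors deposited a count of reads, not normalized, and the percent of the reads of that table. The tables held 399 to 18227 reads per sample (median 3799.5). The sources used here name no molecular identifiers, so several reads may stem from 1 molecule, and intervals and limits from 0 reads (3 reads of the total) cover counting error only. The series calls its samples biological replicates.

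From the counts, alleles were turned to the sgRNA strand, changes against the reference were counted at each base, and percentages were taken over all reads of a table. Guides, labels and sites were joined as the tables' reference windows show, and the label ABE without a version was read as ABEmax. The paper's list of guide oligos has the sequences of sgRNA2 and sgRNA3 the other way round. It lists the oligo of the exon 9 donor under another number than sgRNA9. Group percentages were compared by permuting labels within sgRNA (edited against control), within sgRNA and Cas9 variant, or within sgRNA and deaminase, and paired differences by sign flips, all two-sided with 100000 resamples and Benjamini-Hochberg adjustment over 10 tests. Single base changes with 10 or more reads were fitted with edgeR 4.0.16 in R 4.3.3, with total reads as library size, and with DESeq2 1.42.0 as an alternative. Python 3.11.15, numpy 2.4.6, pandas 2.3.3 and scipy 1.17.1 were used, and the code was tested on simulated data. Sites were named where edgeR called them with a difference of at least 0.1 percentage points, and where they were the flank adenine nearest to either end of a protospacer. Sites named beyond this rule were chosen after their values were seen: -9 and 27, and the thymine at 3, of the exon 8 donor, -7 of the exon 3 and exon 7 donors, and the thymines of the exon 7 and exon 9 donors. The members and tests were chosen with earlier results of these data known. Alternatives were reads without indels, alleles of 2 or more reads or of at least 0.2%, reads with A-to-G and T-to-C changes alone, each replicate left out, a replicate block, narrower sets of sites, and other fits.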

Additional observations from a re-analysis of the deposited data

How the results depend on the processing

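The smallest percentages rest on a few reads per sample, and the share that 0 reads allow ranged from 0.0165% in the deepest sample to 0.501% in SpCas-ABEmax replicate 2 of sgRNA1 and 0.752% in control replicate 2 of sgRNA3, which held 399 reads. Of the 171 alternative values of the main comparisons, 136 kept their direction and their side of the threshold. Keeping alleles of at least 0.2% of reads removed most members and ended the calls: A-to-G at flank adenines was then 0.0115 percentage points above controls, 0.0328 higher with ABE8e than with ABEmax, 0 between SpCas and SpG and 0.0149 in the link to the target edit, A-to-C or A-to-T at flank adenines was 0.0487 above controls, T-to-C was -0.0119 against controls, which reversed it, and 0 between ABE8e and ABEmax, and edgeR called 0 flank adenines and 0 thymines. With alleles of 2 or more reads, T-to-C was 0.0324 above controls and no longer passed. SpCas against SpG (0.0579) and the link to the target edit (0.0405) then had an unadjusted p below 0.05, with no adjustment over tests or alternatives. Limited to protospacer thymines, the differences were 0.0158 for ABE8e against ABEmax, which no longer passed, and, reversed, -0.00554 for SpCas against SpG and -0.00974 for the link. Limited to flank thymines the link was 0.0425, also with an unadjusted p below 0.05. With a flank of 5 bases SpCas against SpG was 0.00749 and no longer passed. Leaving out samples gave 0.0871 to 0.126 for A-to-G at flank adenines against controls, 0.102 to 0.157 for ABE8e against ABEmax, 0.0540 to 0.0876 for SpCas against SpG and 0.108 to 0.114 for the link, and for T-to-C 0.0780 to 0.117, 0.0692 to 0.103, 0.0210 to 0.0639 and 0.00113 to 0.0647 in the same order. It gave 1 to 6 calls for flank adenines and 1 to 4 for thymines, with 6 and 4 without the third control of the exon 9 donor, 5 and 3 without the third replicates, 1 flank adenine without the first replicates and 2 thymines without SpCas-ABE8e replicate 1 of the exon 7 donor. Flank adenine calls were 1 with alleles of 2 or more reads, 5 with reads that have A-to-G and T-to-C changes alone, 1 with no filter on low counts and 19 by absence of overlap, with 5 lower by that rule. Thymine calls were 4 with reads that have A-to-G and T-to-C changes alone, 3 with TMM scaling and 25 by absence of overlap, with 8 lower. DESeq2 called 2 flank adenines and 1 thymine. The call at -4 of the exon 9 donor was also lost with alleles of 2 or more reads, with TMM scaling and with no filter, and that at -3 of the exon 3 donor with alleles of at least 0.2%, while the thymine at -8 of the exon 8 donor kept its call under all 13 alternatives that could be fitted. Samples with the same replicate number were not taken as pairs, since their deviations correlated between -0.726 and 0.984 (median -0.00668) and 27 of 80 samples correlated best with one of their own number. With a replicate block, A-to-G at flank adenines was 0.105 above controls (permutation p = 0.00329), T-to-C was 0.0991 above (permutation p = 0.00307), and edgeR called 2 flank adenines and 1 thymine. The causes of these shifts were not tested.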
